A study of Mus musculus with 6 samples.

Results

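The genes described here are the secreted and cell-surface proteases that cut the extracellular matrix, together with their inhibitors, in the substantia nigra (SN) of MitoPark mice. They were chosen by symbol alone, as the rows of the deposited count table named Mmp, Adamts or Timp followed by a digit. This gave 46 of 24054 genes, made up of 23 matrix metalloproteases (MMPs), 19 ADAMTS proteases and 4 tissue inhibitors of metalloproteases (TIMPs). ADAMTS-like genes, which encode no protease domain, were left out of the 46 and are given below as a list of their own.

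Polyadenylated RNA was sequenced from 3 MitoParks and 3 littermate controls, 16 to 17 weeks of age by the labels, on a C57BL/6 background, without treatment in either group. MitoParks carry Cre recombinase at 1 copy of the dopamine transporter gene (Dat+/Cre) and both copies of Tfam flanked by loxP sites (TFAM LoxP/LoxP). Tfam encodes the mitochondrial transcription factor A, and it is deleted only in cells that express the dopamine transporter, so the SN sample mixes targeted neurons with glial and vascular cells in which the gene is intact. Littermate controls have 2 intact copies of the transporter gene (Dat+/+) and also carry 1 floxed copy of Tfam (TFAM +/LoxP). The labels give the tissue as mouse brain and the paper gives the SN.

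MMPs and ADAMTS proteases are zinc-dependent enzymes that are made as inactive precursors and become active once the propeptide is removed. Between them they cut collagens, basement membrane proteins and the proteoglycans that fill the space around neurons, and TIMPs bind their active sites and block them. In brain, several MMPs are induced in microglia, macrophages and blood vessels after injury, and ADAMTS1, ADAMTS4 and ADAMTS5 are known for cutting the lecticans, the main proteoglycans of the neural matrix.

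The total expected counts per mouse ranged from 8140780 to 10528600, and 3 counts corresponded to between 0.285 and 0.366 CPM, the counts scaled to a common library size by the TMM method. Tfam had 40.3, 44.4 and 45.5 CPM in littermate controls 1, 2 and 3 and 32.7, 33.1 and 33.2 CPM in MitoParks 1, 2 and 3. Every MitoPark was below every control, with a log2 fold change of -0.40 ± 0.11 (SE, n = 3 per group) and an unadjusted p of 0.00565 (edgeR quasi-likelihood test, adjusted p = 0.999). All 8 dopaminergic markers were present and had negative log2 fold changes (median -0.69), of which Slc6a3, the dopamine transporter gene that carries Cre in MitoParks, was called lower (-2.30, unadjusted p = 0.00895, the same test, adjusted p = 0.999). Littermate control 3 stood apart with a summed level of 1410 CPM over these genes, against 293 to 528 CPM in the other mice. The summed counts of 4 genes of the Y chromosome were 1849 in littermate control 1 and 2712 in MitoPark 2, against 1 to 3 in the other mice, so each group holds 1 mouse with high Y-linked counts. In bulk tissue, fewer cells of a type and less RNA per cell cannot be told apart. For Slc6a3, the Cre-bearing copy in MitoParks, absent from controls, cannot be told apart from either. The labels do not say that the mice came from separate litters, so p-values measure only the spread between these samples.

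Of the 46 genes, 41 had a count in at least 1 mouse and 33 had a count in all 6. All 19 ADAMTS genes and all 4 TIMP genes were detected, and 18 of 23 MMPs. Mmp1a, Mmp1b, Mmp7, Mmp20 and Mmp27 were at 0 in all 6 mice, which allows up to the level of 3 counts given above. Another 3 genes, Mmp8, Mmp10 and Mmp21, never exceeded 3 counts. In all, 32 genes had a mean above 1 CPM in at least 1 group and were tested (13 MMPs, 16 ADAMTS genes and 3 TIMPs), and the 14 others were not. Of the 32, 29 passed this filter in both groups, while Mmp12 passed only through MitoParks, and Mmp13 and Mmp23 only through littermate controls.

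Matrix protease and inhibitor transcripts were a small part of the libraries, at 0.124% ± 0.00536 of counts in littermate controls and 0.122% ± 0.00547 in MitoParks (SD, n = 3 each). The inhibitors took most of them. TIMPs held 69.4% ± 1.05 of the 46 genes' counts in littermate controls and 68.9% ± 3.33 in MitoParks. ADAMTS genes held 17.5% ± 1.97 and 18.5% ± 3.90, and MMPs 13.1% ± 1.56 and 12.7% ± 0.859. Timp2 alone accounted for 46.9% ± 4.01 in littermate controls and 46.4% ± 5.46 in MitoParks. These group differences were smaller than the spread between mice.

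Per kilobase of the longest transcript, so that genes could be compared with each other, Timp2 had the highest mean level over the 6 mice at 155.7 CPM per kb, followed by Timp3 at 49.7. Next came Timp4 at 7.59, Adamts4 at 7.52, Mmp17 at 7.46, Adamts2 and Mmp24 both at 7.05 and Mmp15 at 6.76 CPM per kb. These 6 neighbours lie closer together than the mice of a group do for Timp4, Adamts4 or Mmp17. Adamts10, at 5.55, Adamts13, at 4.80, and Mmp14, at 4.46 CPM per kb, were the next in order.

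**Figure D1:**
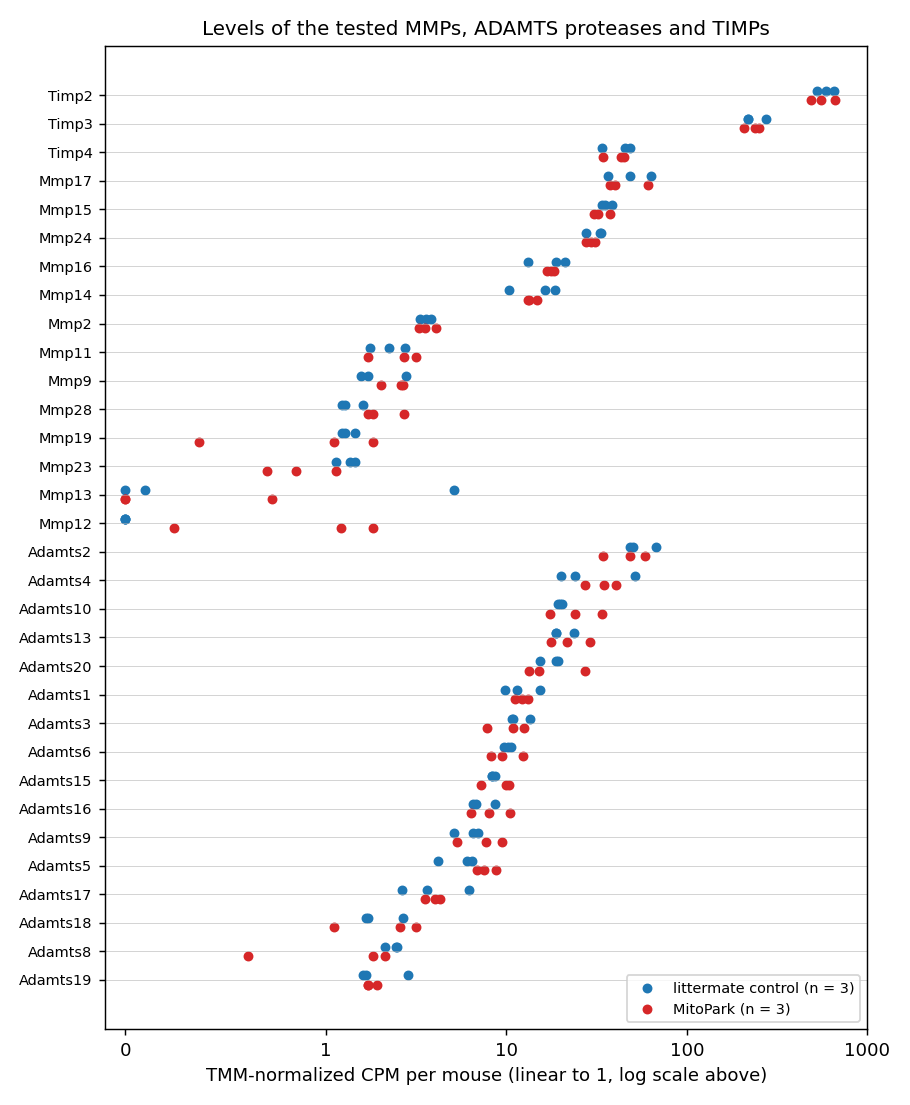
Level of each of the 32 tested genes in each mouse, in TMM-normalized CPM (axis linear up to 1 and logarithmic above), with 3 littermate controls in blue and 3 MitoParks in red and no correction for gene length. The 2 groups' points overlap for 28 genes, and do not for Adamts5, Mmp12, Mmp28 and Mmp23.

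The comparison of MitoParks with littermate controls asks whether the MitoPark genotype was accompanied by a change in SN transcripts of matrix proteases and inhibitors. Tfam deletion, Cre and the altered transporter copy came together in MitoParks and cannot be told apart here. Only 1 of the 32 tested genes, Mmp12, was called as a differentially expressed gene (DEG), at an unadjusted p below 0.05 with a fold change above 1.5, which is 3.12% against 0.577% of the 14568 genes tested (84 DEGs). The share among the 32 rests on that single gene, which passed the filter only through MitoParks, where it was high, and 0 of the 29 genes that passed in both groups were called. No gene of the 46 had an adjusted p below 0.05, against 0% of all genes tested (edgeR quasi-likelihood test with Benjamini-Hochberg adjustment, smallest adjusted p = 0.999), while 161 of all genes and 1 of the 32 had an unadjusted p below 0.05.

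The 32 log2 fold changes were centred near 0, with 14 positive and 18 negative values and a median of -0.02, the median over all genes tested being -0.0047. Mmp12 lay above this median both as fitted and at its lower bound, so the choice between them could not move the median. Most changes were small, with 25 of 32 within 0.3 of 0 on the log2 scale. The median size of a change was 0.16, against 0.0861 over all genes tested, and the median SE was 0.23 against 0.16, so that both the changes and their errors were larger among these genes. By family, the median was -0.09 for 13 MMPs (5 positive, 8 negative), 0.08 for 16 ADAMTS genes (9 positive, 7 negative) and -0.05 for 3 TIMPs (all negative). In 4 of 32 genes, or 12.5%, the 2 groups did not overlap, against 4.71% of all genes tested. Of the 29 genes that passed the filter in both groups, only Adamts5 and Mmp28 did not overlap.

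**Figure D2:**
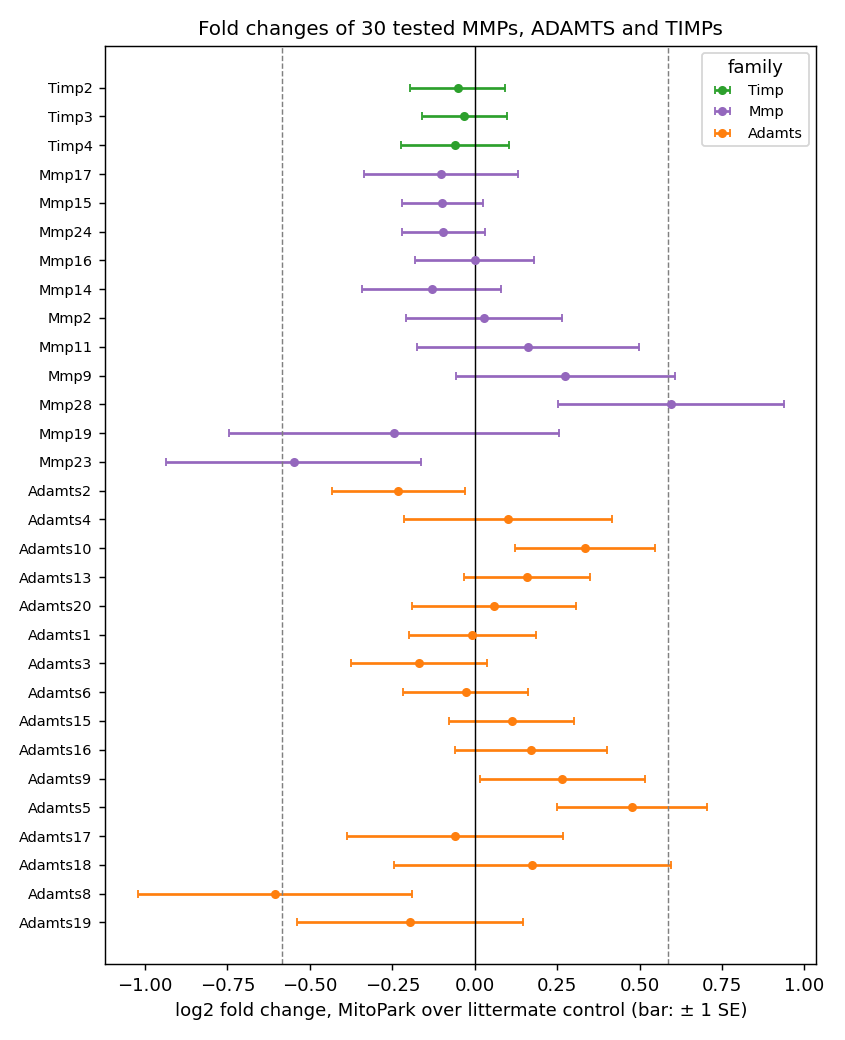
Log2 fold change of MitoParks over littermate controls for 30 tested genes (all but Mmp12 and Mmp13, whose fitted values rest on groups at or near 0), with bars of 1 SE on each side (n = 3 per group) and colours for the 3 families. Dashed lines mark the fold change of 1.5, and the estimates of Mmp28 and Adamts8 reach past them with unadjusted p-values of 0.116 and 0.178 (edgeR quasi-likelihood test).

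Mmp12, the macrophage elastase, had no count in any of the 3 littermate controls and 2, 12 and 16 counts in MitoParks 1, 2 and 3. These counts correspond to 0.24, 1.21 and 1.81 CPM in MitoParks. MitoPark 1 was thus below the level of 3 counts, and MitoParks 2 and 3 carried the difference. Against littermate controls set at 3 counts per library, the mean of MitoParks was at least 3.59-fold higher. The unadjusted p was 0.00276 (edgeR quasi-likelihood test) and the adjusted p 0.999, with adjusted p-values from 0.0264 (edgeR's exact test) to 1 over the alternatives. The call depended on MitoPark 3, without which the gene was below the filter and was not tested.

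Microglia and macrophages are the known sources of MMP12. The 8 microglial markers gave no DEG, with a median log2 fold change of 0.19 (7 positive, 1 negative). Their summed level was 246 to 333 CPM in littermate controls and 310 to 330 CPM in MitoParks. Aif1 had 3.23, 3.13 and 3.13 CPM in littermate controls and 3.41, 4.35 and 6.12 CPM in MitoParks (unadjusted p = 0.0752, edgeR quasi-likelihood test, adjusted p = 0.999). In the other microglial markers the groups overlapped. Of 8 genes of border macrophages and monocytes, 3 were tested and 1, Mrc1, the mannose receptor of border macrophages, was a DEG. Of all genes tested, 0.577% were called. In Cd163 and Lyve1, the others of this list that were tested, the groups overlapped. Mrc1 had 2.00, 2.47 and 2.44 CPM in littermate controls and 3.66, 4.65 and 4.20 CPM in MitoParks, a log2 fold change of 0.85 ± 0.25 with an unadjusted p of 0.00817 (edgeR quasi-likelihood test, adjusted p = 0.999). The summed level of this list was 6.13 to 8.07 CPM in littermate controls and 8.41 to 11.3 CPM in MitoParks, and none of its markers was at 0 in all mice. Without Mrc1, the 7 other genes summed to 3.81 to 5.60 CPM in littermate controls and 4.75 to 7.14 CPM in MitoParks, which overlapped. The part of these cells in the Mmp12 counts was not tested.

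In the RefSeq annotation of GRCm38.p6, Mmp12 stands second in a row of 10 Mmp genes on chromosome 9, in the order Mmp13, Mmp12, Mmp1b, Mmp3, Mmp1a, Mmp10, Mmp8, Mmp27, Mmp20 and Mmp7, with 0 other protein-coding genes between them. This row holds the 5 genes at 0 in all mice and, with Mmp8 and Mmp10, 2 of the 3 that never exceeded 3 counts. The remaining 3, Mmp13, Mmp12 and Mmp3, were the ones with more than 3 counts in some mouse. The stretches of 150 bases before the annotated starts of these 3 genes are shown because they are the genes of this row with more than 3 counts. The sequences are from RefSeq (GRCm38.p6, plus strand), and capitals mark the binding motif of AP-1, the Fos-Jun transcription factor known to act on MMP promoters, searched as TGAGTCA and its other strand TGACTCA.
Mmp13, chr9:7272364-7272513: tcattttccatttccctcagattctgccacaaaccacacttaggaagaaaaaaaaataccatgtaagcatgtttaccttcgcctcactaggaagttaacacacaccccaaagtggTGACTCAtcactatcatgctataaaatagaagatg
Mmp12, chr9:7347224-7347373: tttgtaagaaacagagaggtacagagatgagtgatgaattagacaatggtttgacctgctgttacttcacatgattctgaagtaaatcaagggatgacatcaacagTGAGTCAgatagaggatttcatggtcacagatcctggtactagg
Mmp3, chr9:7445672-7445821: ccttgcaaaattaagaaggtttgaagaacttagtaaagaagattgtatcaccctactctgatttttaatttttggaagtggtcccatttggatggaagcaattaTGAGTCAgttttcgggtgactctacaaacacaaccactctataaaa

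The motif began 35 bases before the start in Mmp13, 44 in Mmp12 and 46 in Mmp3. Mmp12 has another annotated start upstream, whose window did not hold it. Over windows of 300 bases (250 before and 50 after each start), the motif was found in 7 of the 10 genes of the row, or 58.3% of their 12 windows, in 0 of 22 other genes of the families with a window, and in 5.20% of the 32851 windows of all genes. The motif was not limited to genes of the row with more than 3 counts. In Mmp10, which never exceeded 3 counts, it began 63 bases before the start. Windows were at hand for 32 of the 46 genes. A match describes the letters of a window and is not evidence of binding.

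Mmp13 and Mmp3, the neighbours of Mmp12 with counts, had most of theirs in 1 control mouse. Mmp13, a collagenase, was counted 46 times in littermate control 1, against 0 and 1 in controls 2 and 3 and 6, 0 and 0 in the MitoParks. It did not pass the test (unadjusted p = 0.124, edgeR quasi-likelihood test, adjusted p = 0.999) and is named after its values were seen. Without littermate control 2 or littermate control 3, the unadjusted p was 0.0449 or 0.029, which calls it lower in MitoParks, and without littermate control 1 it was not tested. Mmp3 (stromelysin-1), which cuts many matrix proteins and activates other MMPs, was counted 19, 4 and 1 times in the controls and 1, 0 and 1 times in the MitoParks. It was below the filter and was not tested. With MitoParks set at 3 counts per library its mean was at least 2.57-fold lower than that of littermate controls, and without littermate control 1 the mean of the other controls was 0.710 times that level of 3 counts.

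Littermate control 1 also had the highest counts of Timp1, an inhibitor that is induced in injured and inflamed tissue, with 9 counts against 2 and 1 in the other controls and 3, 2 and 4 in MitoParks. In the same mouse, 6 neutrophil markers summed to 16 counts, against 0 and 2 in the other controls and 2, 6 and 9 in MitoParks. None of these 6 genes passed the filter. Mmp8, the neutrophil collagenase, and Mmp10 (stromelysin-2) had 1 count in that mouse and 0 in the others, and Mmp25, a membrane-type MMP of leukocytes, was counted 5, 1 and 4 times in the controls and 0, 0 and 1 times in the MitoParks. The part of blood cells in the counts of littermate control 1 was not tested.

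**Figure D3:**
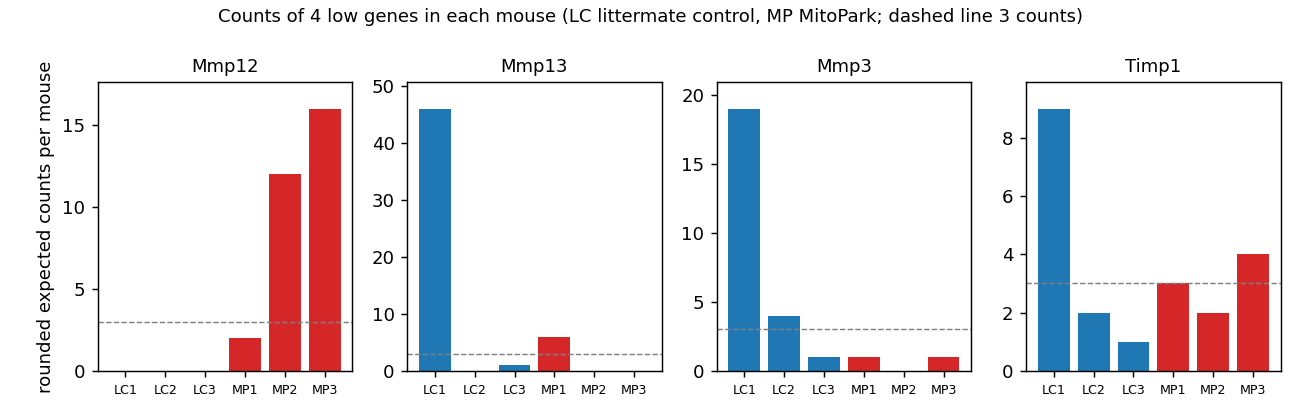
Rounded expected counts of Mmp12, Mmp13, Mmp3 and Timp1 in each mouse, with littermate controls 1 to 3 (LC) in blue, MitoParks 1 to 3 (MP) in red and a dashed line at 3 counts. Mmp12 exceeds the line only in MitoParks 2 and 3, and the tallest bar of Mmp13, Mmp3 and Timp1 is littermate control 1, at 46, 19 and 9 counts.

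The abundant inhibitors did not differ between groups beyond the spread of the mice. Timp2, which blocks MMP2 and is also needed for its activation by MMP14, had 649.5, 588.4 and 525.3 CPM in littermate controls and 661.6, 554.9 and 484.6 CPM in MitoParks. The groups overlapped, with the highest and the lowest value both in MitoParks. Its log2 fold change was -0.05, with a 95% interval from -0.38 to 0.27. Timp3, which binds to the matrix and inhibits ADAMTS proteases and ADAM17 as well as MMPs, had 219.3, 219.0 and 273.6 CPM in littermate controls and 207.0, 237.3 and 252.0 CPM in MitoParks. The log2 fold change was -0.03, with an interval from -0.32 to 0.26. Timp4, an inhibitor found mainly in brain and heart, had 34.0, 48.3 and 45.4 CPM in littermate controls and 45.0, 43.4 and 34.4 CPM in MitoParks, a log2 fold change of -0.06 with an interval from -0.43 to 0.31.

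Membrane-type MMPs, which are anchored at the cell surface, were the most abundant MMPs. There were 6 such genes, of which 5 were tested and none was called, with log2 fold changes from -0.13 to -0.0003. Mmp17, anchored through a lipid tail, had 63.6, 48.3 and 36.8 CPM in littermate controls and 61.2, 40.1 and 37.3 CPM in MitoParks. In both groups mouse 1 was the highest, and the groups overlapped. Mmp15 had 35.3, 34.0 and 38.3 CPM in littermate controls and 37.5, 32.4 and 30.7 CPM in MitoParks, with a log2 fold change of -0.10 and an interval from -0.38 to 0.18. Mmp24, a neuronal MMP known to cut N-cadherin, had 33.6, 27.5 and 32.8 CPM in littermate controls and 31.1, 27.7 and 29.3 CPM in MitoParks, with an interval from -0.38 to 0.19. For both genes the highest mouse was within 1.25-fold and 1.22-fold of the lowest. Mmp16 had between 13.1 and 21.0 CPM in littermate controls and between 16.9 and 18.4 CPM in MitoParks. Mmp14, the main activator of MMP2, had 18.6, 10.4 and 16.4 CPM in littermate controls and 13.4, 14.8 and 13.2 CPM in MitoParks, a log2 fold change of -0.13 ± 0.21.

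The gelatinases, which cut denatured collagen and basement membrane, were low and did not pass the test. Mmp2 had 3.56, 3.32 and 3.81 CPM in littermate controls and 3.29, 3.54 and 4.08 CPM in MitoParks. Its log2 fold change was 0.03, with an interval from -0.50 to 0.56. Mmp9, the gelatinase of neutrophils and activated microglia, had 2.78, 1.71 and 1.56 CPM in littermate controls and 2.68, 2.02 and 2.61 CPM in MitoParks. The log2 fold change was 0.28 with an interval from -0.47 to 1.02, and the highest mouse was again littermate control 1.

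A pair of low MMPs had groups that did not overlap, in opposite directions. Mmp28 (epilysin) had 1.23, 1.61 and 1.27 CPM in littermate controls and 1.71, 1.82 and 2.72 CPM in MitoParks. Its log2 fold change was 0.59 ± 0.34 (unadjusted p = 0.116, edgeR quasi-likelihood test). Mmp23, a membrane-bound MMP without the hemopexin domain of most others, had 1.45, 1.14 and 1.37 CPM in littermate controls and 0.85, 0.71 and 1.13 CPM in MitoParks, with -0.55 ± 0.39 on the log2 scale (unadjusted p = 0.187 by that test). Both rest on few reads, 11 to 24 counts per mouse for Mmp28 and 7 to 14 for Mmp23, and MitoPark 3 and littermate control 2 nearly met in the latter. Mmp11, which is activated inside the cell by furin, had 1.76 to 2.75 CPM in littermate controls and 1.72 to 3.17 CPM in MitoParks. Mmp19 had 3 to 16 counts per mouse, with both ends in MitoParks.

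ADAMTS genes had no DEG among 16 tested. The 7 proteases that cut lecticans such as versican were all tested, with 5 positive and 2 negative log2 fold changes. Among them, Adamts5, an aggrecanase, was the one whose groups did not overlap. It had 6.46, 6.08 and 4.20 CPM in littermate controls and 7.56, 8.80 and 6.92 CPM in MitoParks. Every MitoPark was above every control, with a log2 fold change of 0.48 ± 0.23 and a 95% interval from -0.03 to 0.99. The unadjusted p of 0.0637 (edgeR quasi-likelihood test, adjusted p = 0.999) did not pass, and the exact two-sided permutation p was 0.1, the smallest that 3 against 3 mice allow. Leaving out each mouse in turn gave log2 fold changes from 0.31 to 0.60, the lowest without littermate control 3.

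Adamts4, which cuts brevican and aggrecan and is known in brain as a gene of oligodendrocytes, had the widest spread of the abundant proteases. It had 24.1, 20.04 and 51.4 CPM in littermate controls and 27.4, 34.8 and 40.2 CPM in MitoParks. Littermate control 3 was the highest of all 6 mice, and the 3 MitoParks lay between it and the other 2 controls. The log2 fold change was 0.10 ± 0.32 (unadjusted p = 0.757, edgeR quasi-likelihood test). Leaving out littermate control 3 moved it to 0.63 (unadjusted p = 0.00546), which would have been called, and leaving out littermate control 2 moved it to -0.15.

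The myelin genes were ordered in a like way. Mbp had 3017, 4826 and 8775 CPM in littermate controls and 4617, 5911 and 7703 CPM in MitoParks. Littermate control 3 was also the highest mouse for Mog, at 165.4 CPM, and Mag, at 495.3 CPM, followed by MitoPark 3 at 140.1 and 411.7 CPM and MitoPark 2 at 96.7 and 286.1 CPM. The 6 oligodendrocyte markers summed to 6697, 9454 and 17757 CPM in littermate controls and 9203, 11941 and 15111 CPM in MitoParks, with none at 0 and no DEG. Among 6 astrocyte markers, Aqp4 alone shared the myelin genes' order of the highest mice. Aqp4 had 408.6 CPM in littermate control 3, 391.8 in MitoPark 3 and 361.3 in MitoPark 2, above the other mice. Gfap was highest in MitoPark 3 at 549.8 CPM. Slc1a3 was highest in MitoPark 1 at 687.1 CPM and lowest in littermate control 3 at 437.4 CPM. The 6 markers summed to 3199, 3017 and 3608 CPM in littermate controls and 3209, 3842 and 3543 CPM in MitoParks, with no DEG. Whether the amount of myelinated tissue in a sample set the level of Adamts4 was not tested.

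**Figure D4:**
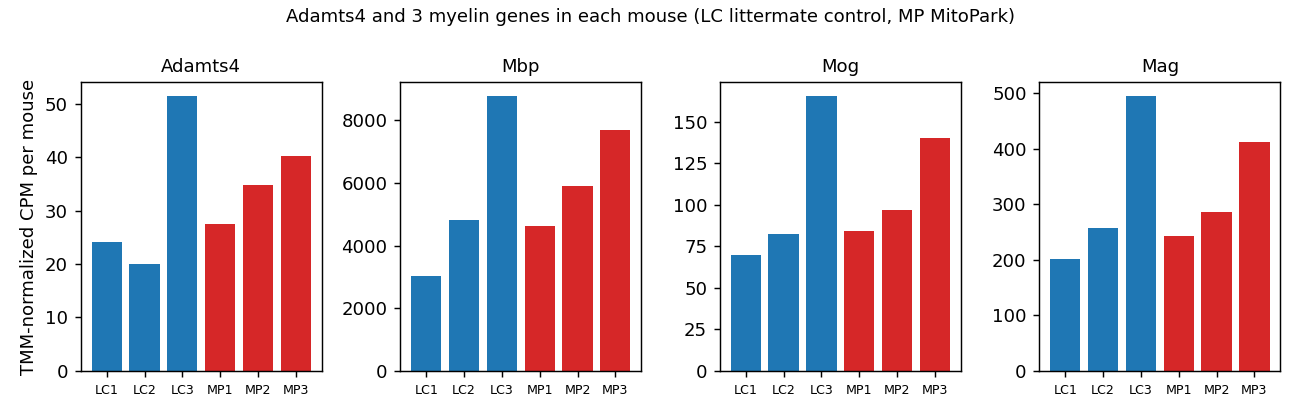
TMM-normalized CPM of Adamts4 and of the myelin genes Mbp, Mog and Mag in each mouse, with littermate controls 1 to 3 (LC) in blue and MitoParks 1 to 3 (MP) in red, each panel on its own linear axis from 0. In all 4 panels littermate control 3 is the highest bar, with 51.4 CPM for Adamts4 and 8775 CPM for Mbp, followed by MitoPark 3 and MitoPark 2.

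Adamts1, the other well-known brain lecticanase, had 11.5, 9.88 and 15.3 CPM in littermate controls and 11.1, 13.2 and 12.1 CPM in MitoParks, so that both ends of the range were control mice. Its log2 fold change was -0.0076, with an interval from -0.44 to 0.42. Adamts20 had 15.3 to 19.4 CPM in littermate controls and 13.4 to 27.1 CPM in MitoParks. Adamts9 had 5.13 to 6.94 CPM in littermate controls and 5.36 to 9.41 CPM in MitoParks, and Adamts15 had 8.35 to 8.70 and 7.19 to 10.3 CPM. Adamts8 had 2.12, 2.47 and 2.44 CPM in littermate controls and 0.61, 2.12 and 1.81 CPM in MitoParks, with MitoPark 1 apart at 5 counts. Its log2 fold change of -0.61 ± 0.42 did not pass the test (unadjusted p = 0.178, edgeR quasi-likelihood test).

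The procollagen N-proteinases, which trim the ends of fibrillar collagens, had negative values in both genes tested. Adamts2 had 48.6, 67.2 and 50.4 CPM in littermate controls and 34.4, 58.7 and 48.2 CPM in MitoParks. The groups overlapped, and the log2 fold change of -0.23 ± 0.20 did not pass the test. Adamts3, which also activates the lymphatic growth factor VEGF-C, had 10.8 to 13.5 CPM in littermate controls and 7.80 to 12.6 CPM in MitoParks. Adamts14 had 1 to 10 counts per mouse and was not tested.

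Of the 9 other ADAMTS genes, 7 were tested, with log2 fold changes from -0.20 to 0.33. Adamts10, which binds fibrillin microfibrils, had 19.4, 20.4 and 19.7 CPM in littermate controls and 24.0, 17.4 and 33.8 CPM in MitoParks. The 3 controls lay close together, while MitoParks held both the lowest and the highest value, and the log2 fold change was 0.33 ± 0.21 (unadjusted p = 0.15, edgeR quasi-likelihood test). Adamts13, the protease of von Willebrand factor, had 18.8 to 23.7 CPM in littermate controls and 17.7 to 29.1 CPM in MitoParks. For Adamts10, Adamts13 and Adamts20, MitoPark 3 was the highest of the 6 mice. Adamts6 had 9.69 to 10.7 CPM in littermate controls and 8.17 to 12.4 CPM in MitoParks. The lowest of the 7, Adamts16, Adamts17, Adamts18 and Adamts19, had 11 to 92 counts per mouse, and in each the groups overlapped. Adamts7 and Adamts12 had 10 counts or fewer in every mouse and were not tested.

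The genes that act on these proteases, that they act on or that are related to them gave 1 DEG in 5 lists. The lists held 16, 14, 22, 11 and 7 tested genes, and 0.577% of all genes tested were called. Of 19 regulators of metalloprotease activity, among them plasminogen activators, serpins and RECK, 16 were tested and 0 were called, with 8 positive and 8 negative values and a median log2 fold change of -0.02. Lrp1, the endocytic receptor that clears many proteases and TIMPs, had 480.6 to 632.9 CPM in littermate controls and 476.5 to 609.4 CPM in MitoParks. Bsg, which encodes the MMP inducer basigin, had 404.2 to 420.6 CPM in littermate controls and 386.4 to 443.6 CPM in MitoParks.

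Of 16 genes of the lecticans and perineuronal net, the substrates and partners of the lecticanases, 14 were tested, with 0 called higher and 1 lower and a median of -0.10 (4 positive, 10 negative). The gene called was Tnc, the matrix glycoprotein tenascin-C, with 9.58, 6.46 and 11.6 CPM in littermate controls and 4.14, 5.66 and 6.35 CPM in MitoParks. Every MitoPark was below every control, although MitoPark 3 and littermate control 2 nearly met, and the log2 fold change was -0.77 ± 0.27 (unadjusted p = 0.0169, edgeR quasi-likelihood test, adjusted p = 0.999). The call was lost without littermate control 3 (unadjusted p = 0.068), without MitoPark 1 (0.0642) and without the 2 mice with high Y-linked counts (0.0876). Bcan, which encodes the ADAMTS4 substrate brevican, had 187.1, 228.0 and 253.3 CPM in littermate controls and 257.0, 215.1 and 290.4 CPM in MitoParks, a log2 fold change of 0.19 ± 0.15 that did not pass. Ptprz1, a receptor phosphatase and chondroitin sulfate proteoglycan, had 263.2 to 291.2 CPM in littermate controls and 214.7 to 300.3 CPM in MitoParks.

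All 22 genes of collagens, basement membrane and fibronectin were tested and 0 were called, with a median of 0.10 (17 positive, 5 negative). The most abundant, Sparc, a secreted collagen-binding protein, had 1391 to 1722 CPM in littermate controls and 1529 to 1835 CPM in MitoParks, and Agrn, which encodes the basement membrane proteoglycan agrin, had 142.3 to 171.7 CPM and 128.2 to 229.5 CPM. The 6 markers of fibroblasts and meninges, cells that make much of this matrix, summed to 72.7 to 101 CPM in littermate controls and to 64.7, 121 and 126 CPM in MitoParks, with none at 0 and no DEG. Of 12 ADAM genes, which encode membrane-bound relatives of the ADAMTS proteases, 11 were tested and 0 were called, with a median of -0.0061 (5 positive, 6 negative). Adam22 and Adam23, which lack protease activity and bind LGI proteins at synapses, were the most abundant of them at 270.0 to 312.5 CPM and 169.4 to 229.3 CPM over the 6 mice. All 7 ADAMTS-like genes were tested and 0 were called, with a median of -0.05 (2 positive, 5 negative). Adamtsl4, with 14.1 to 26.1 CPM in littermate controls and 17.6 to 28.3 CPM in MitoParks, and Adamtsl1, with 11.8 to 18.5 and 8.65 to 18.9 CPM, were the most abundant of these.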

How the data were processed

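RNA from 3 MitoParks and 3 littermate controls was analysed. The authors aligned reads with Bowtie2 to the transcripts of UCSC, and the deposited values are the expected counts per gene from RSEM, not normalized. The submitters' processing notes name Bowtie2 2.1.0, RSEM 1.2.15 and hg38, a human build, for these mouse samples, so no coordinates were taken from the counts, and whether RSEM was set to use the strand is not given in the sources used here. Between 11.9% and 14.1% of values per mouse were not whole. Columns named Treat were taken as MitoParks by their replicate numbers, and 0 columns belonged to no sample.

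Expected counts were rounded. Genes whose CPM averaged above 1 in either group were normalized by TMM and fitted with edgeR 4.0.16 (R 4.3.3), using the quasi-likelihood test with group as the only term. DEGs were called at a fold change above 1.5 with p, unadjusted, below 0.05. Benjamini-Hochberg adjustment ran over the whole set of tested genes. Exact permutation tests used log2(CPM + 0.1). Levels of 3 counts served as the floor, which covers only these reads, and the reads carry no molecular identifiers. SEs were taken from the log2 fold change and the F statistic of the fit. Intervals (95%) were built from these SEs and so reflect the spread between these samples. Mice of a group differed by more than sampling noise (chi-square per degree of freedom at least 9.68). Transcript lengths came from the longest GENCODE M21 protein-coding transcript (46 of 46 genes), and promoters and gene order from RefSeq GRCm38.p6 (Python 3.11.15).

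The genes, lists and tests were chosen with earlier results of these data known. Genes named are members with an unadjusted p below 0.05 or groups that did not overlap, TIMPs, the 8 most abundant tested MMPs and ADAMTS genes, members best known in brain, list genes with an unadjusted p below 0.05 and the 2 most abundant of each list, and Tfam. Other members are given with their counts or ranges. Alternatives were normalization by total count, upper quartile or RLE, 3 different filters, DESeq2 1.42.0, limma-voom (limma 3.58.1), edgeR's exact test and robust dispersion, unrounded counts, a pseudocount of 1, a block for the replicate number, and the omission of each mouse in turn. A term for high Y-linked counts (Ddx3y above 1 CPM) and a fit without the 2 mice that have them were added after the data were seen.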

Additional observations from a re-analysis of the deposited data

How the results depend on the processing

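The number of DEGs among all genes was 84, and moved to 176 without a filter and 309 without the 2 mice with high Y-linked counts (62 to 219 when 1 mouse was left out). Of the 46 genes, Mmp12 alone was called in the fit described above, 3 without a filter (Mmp12, Mmp25 and Mmp3), and 0 with filterByExpr or with a CPM above 1 in at least 3 mice, where Mmp12 was not tested. Leaving out 1 mouse gave 0 (without MitoPark 3) to 4 called genes (without littermate control 3: Adamts4, Mmp12, Mmp13 and Mmp3), and 3 without littermate control 2. Same-numbered mice had correlations of 0.31, -0.07 and 0.24 between their deviations from the group means. These values cannot settle whether the numbers mark mice handled together, and the labels do not say. With the replicate number as a block, 2 of the 46 genes were called, Mmp12 and Mmp13 (unadjusted p = 0.00261, edgeR quasi-likelihood test). The median log2 fold change of MMPs was 0.12 without the 2 mice with high Y-linked counts.

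For the genes named, 481 of 499 values over 14 settings kept direction and side of the threshold, and 16 changed sign. Adamts1 was 0.0083 with total counts, 0.0182 with limma-voom and 0.00996 with the block, and Adamts20 was -0.00897 with limma-voom. Mmp16 was 0.0086 with upper quartile and 0.0143 with total count normalization, 0.00053 with filterByExpr, 0.00046 with the filter on 3 mice, 0.0338 with limma-voom, 0.022 with the block and 0.0078 with the Y-linked term. Without the 2 mice with high Y-linked counts, Adamts4 was -0.0676, Mmp16 0.18, Mmp17 0.21, Mmp24 0.0057 and Timp2 0.0473. The cause of these changes was not tested.

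Leaving out 1 mouse gave medians of -0.0691 to 0.0578 for all members, -0.0889 to 0.15 for ADAMTS genes, -0.16 to 0.084 for MMPs, -0.12 to 0.0492 for TIMPs and -0.13 to 0.0172 for the regulators. Signs changed within these ranges of log2 fold change: Adamts1 -0.14 to 0.19, Adamts3 -0.33 to 0.0069, Adamts4 -0.15 to 0.63, Adamts6 -0.21 to 0.10, Adamts13 -0.0554 to 0.32, Adamts20 -0.32 to 0.25, Mmp2 -0.061 to 0.10, Mmp11 -0.0159 to 0.39, Mmp14 -0.34 to 0.0472, Mmp16 -0.18 to 0.15, Mmp17 -0.35 to 0.12, Timp2 -0.17 to 0.0492, Timp3 -0.0956 to 0.0833, Timp4 -0.19 to 0.0519, Adam22 -0.0058 to 0.10, Adamtsl1 -0.36 to 0.17, Adamtsl4 -0.0694 to 0.53, Bsg -0.000723 to 0.0963 and Lrp1 -0.0369 to 0.17. Genes under about 10 counts per mouse, among them most of the MMP row on chromosome 9, are limited by depth.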
